A study of Mus musculus with 24 samples.

Results

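The intercalated disc is the cell border where one heart muscle cell joins the next, and 10 of its junction genes, or relatives of them, were followed here by symbol: the connexins Gja1, Gja5 and Gjc1, the cadherins Cdh2 and Cdh11, and the desmosome genes Dsp, Dsg2, Dsc2, Pkp2 and Jup. All 10 were found among the 47967 genes of the count table, and all 10 had enough counts to be tested. The cells were fibroblasts of C57BL/6 mouse embryos (embryonic day 13.5 to 14.5) that retroviruses were to turn towards heart muscle, and RNA sequencing measured their transcripts. Of 8 groups with 3 libraries each, the transduced ones were AGHMT, GHMT and GMT, and mock-treated cells were the control, each taken 7 or 2 days after transduction. GMT usually stands for the transcription factors Gata4, Mef2c and Tbx5, the H for Hand2 and the A for the kinase Akt1. The transduced cells received virus repeatedly and were then kept in an induction medium, and the labels do not say whether mock cells received an empty virus or the same medium. Whole cultures were sequenced, so fewer cells of a type and less RNA per cell cannot be told apart in any level given here.

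Gap junctions are built from connexins and pass ions from cell to cell, which lets the action potential travel through heart muscle. Adherens junctions hold the cells together through classical cadherins, which catenins tie to actin, and desmosomes do the same with desmogleins and desmocollins, which plakoglobin, plakophilin and desmoplakin tie to intermediate filaments. In the human heart, variants in the desmosome genes followed here are a known cause of arrhythmogenic cardiomyopathy. Cdh11 differs from the others in that it is a cadherin of mesenchymal cells, fibroblasts among them, and not a disc protein of mature heart muscle.

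The 24 libraries held 29345957 to 37495178 counted reads, and levels are given as CPM, read counts relative to library totals scaled by edgeR's TMM factors. Counts of the cocktail genes hold transcripts of the virus and of the cell alike. As a check of the labels, Gata4, Mef2c and Tbx5 averaged at least 632 CPM in all 6 transduced groups and at most 33.1 CPM in mock groups. Hand2 averaged 1125 and 978 CPM in AGHMT and GHMT libraries of day 7, against 3.23 CPM in GMT and 7.58 CPM in mock libraries. Akt1 was 0.24 ± 0.04 (edgeR adjusted p = 2.68e-05) higher on the log2 scale in AGHMT than in GHMT libraries at day 7. In that comparison 25% of all genes were called higher, so this small difference is a weak check of the A in the label. The labels give no batch and do not say that replicates were separate cultures, so the p-values measure a spread that may be technical only, and a batch that followed cocktail or day cannot be told apart from it. The AGHMT day 2 library of replicate 3 stood apart, with a correlation of 0.9953 with the rest of its group, where every other library reached 0.9982 or more. Without it the number of the 10 genes called, as defined below, was 10 in AGHMT against mock at day 2, 9 in AGHMT against GHMT at day 2 and 10 in AGHMT at day 7 against day 2, as with it. The 11 heart muscle markers summed to 23359 to 24212 CPM in AGHMT, 17238 to 18231 CPM in GHMT, 12447 to 13048 CPM in GMT and 25.4 to 29 CPM in mock libraries of day 7. The 11 fibroblast markers summed to 15591 to 16521 CPM in AGHMT, 12569 to 14420.1 CPM in GHMT, 7678 to 8158 CPM in GMT and 73111 to 79201 CPM in mock libraries.

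At day 7 all 10 genes differed from mock under each of the 3 cocktails. Gja1, Gja5, Cdh2, Dsp, Dsg2, Dsc2, Pkp2 and Jup were higher, and Gjc1 and Cdh11 were lower, in all 3 comparisons. No cocktail library overlapped a mock library in any of the 10 genes, where 79.8% of all genes did not overlap between AGHMT and mock, 74.6% between GHMT and mock and 77.2% between GMT and mock. A gene was called at an edgeR quasi-likelihood adjusted p under 0.05, adjusted over all 17576 genes tested, and with this threshold 76.8% of all genes were called under AGHMT, 72% under GHMT and 73% under GMT. The share of all genes called higher was 38.6% under AGHMT, 36.3% under GHMT and 37.1% under GMT, and the share called lower was 38.1% under AGHMT, 35.6% under GHMT and 36% under GMT. With so many genes called, a call by itself is close to the background, and the sizes of the changes follow gene by gene. The median log2 fold change of the 10 genes was 2.67 under AGHMT, 3.07 under GHMT and 2.42 under GMT. The median over all genes tested was 0.00, 0.00 and 0.01 in the same 3 comparisons, but the scaling tends to hold it there. The 10 genes were also chosen with earlier results of these data known, so their median is a description only. At day 2 the same directions were already present, with 8 genes higher and 2 lower under AGHMT (75.4% of all genes called, 38% higher and 37.4% lower) and under GHMT (68.2%, 34.9% and 33.3%). Under GMT at day 2 there were 7 higher and 2 lower (67.1%, 33.9% and 33.1%), and Pkp2 was not called. Between AGHMT and mock libraries of day 2, and between GHMT and mock, none of the 10 genes overlapped, and between GMT and mock Pkp2 did, beside 74.4%, 73.3% and 74.3% of all genes that did not overlap.

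**Figure D1:**
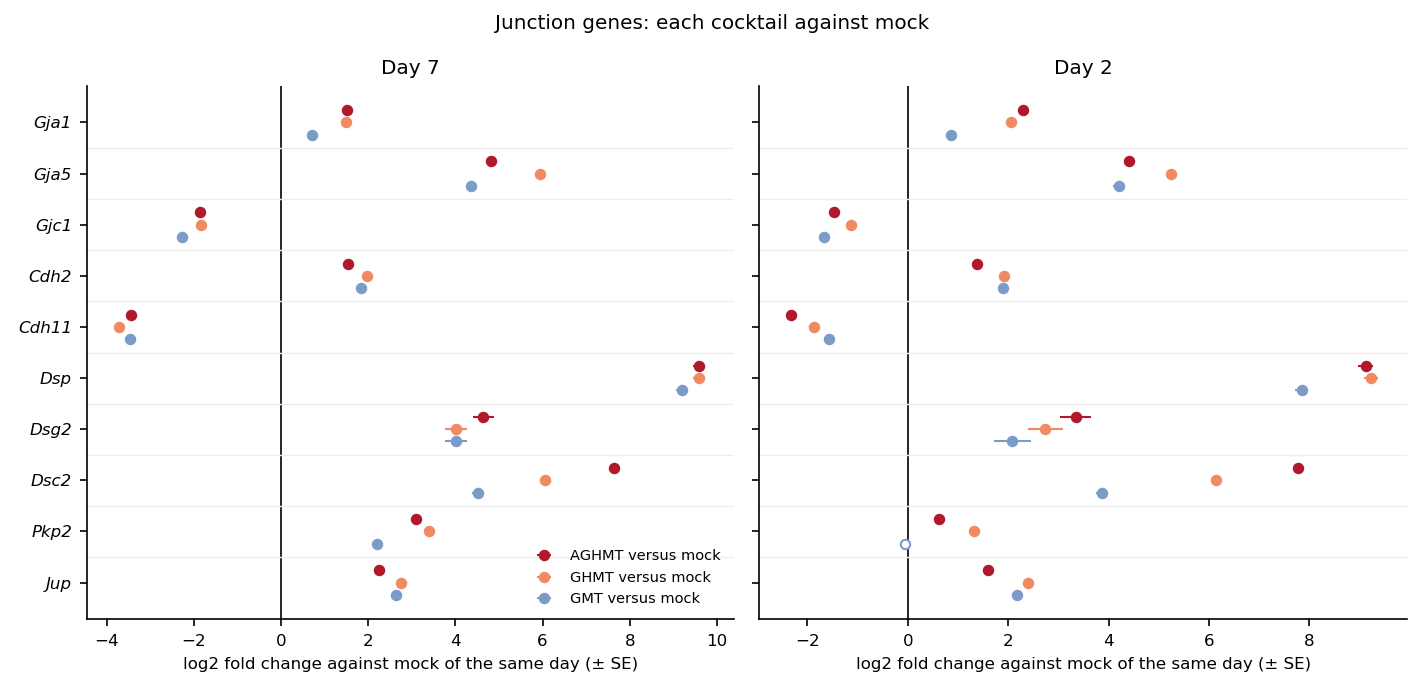
Log2 fold change of each of the 10 genes against mock of the same day (x axis, point and SE bar) for AGHMT, GHMT and GMT at day 7 (left) and day 2 (right); filled points were called and the open point was not. Dsp lies furthest to the right, at 9.58 under AGHMT at day 7, and Cdh11 and Gjc1 lie left of 0 in both panels.

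**Figure D2:**
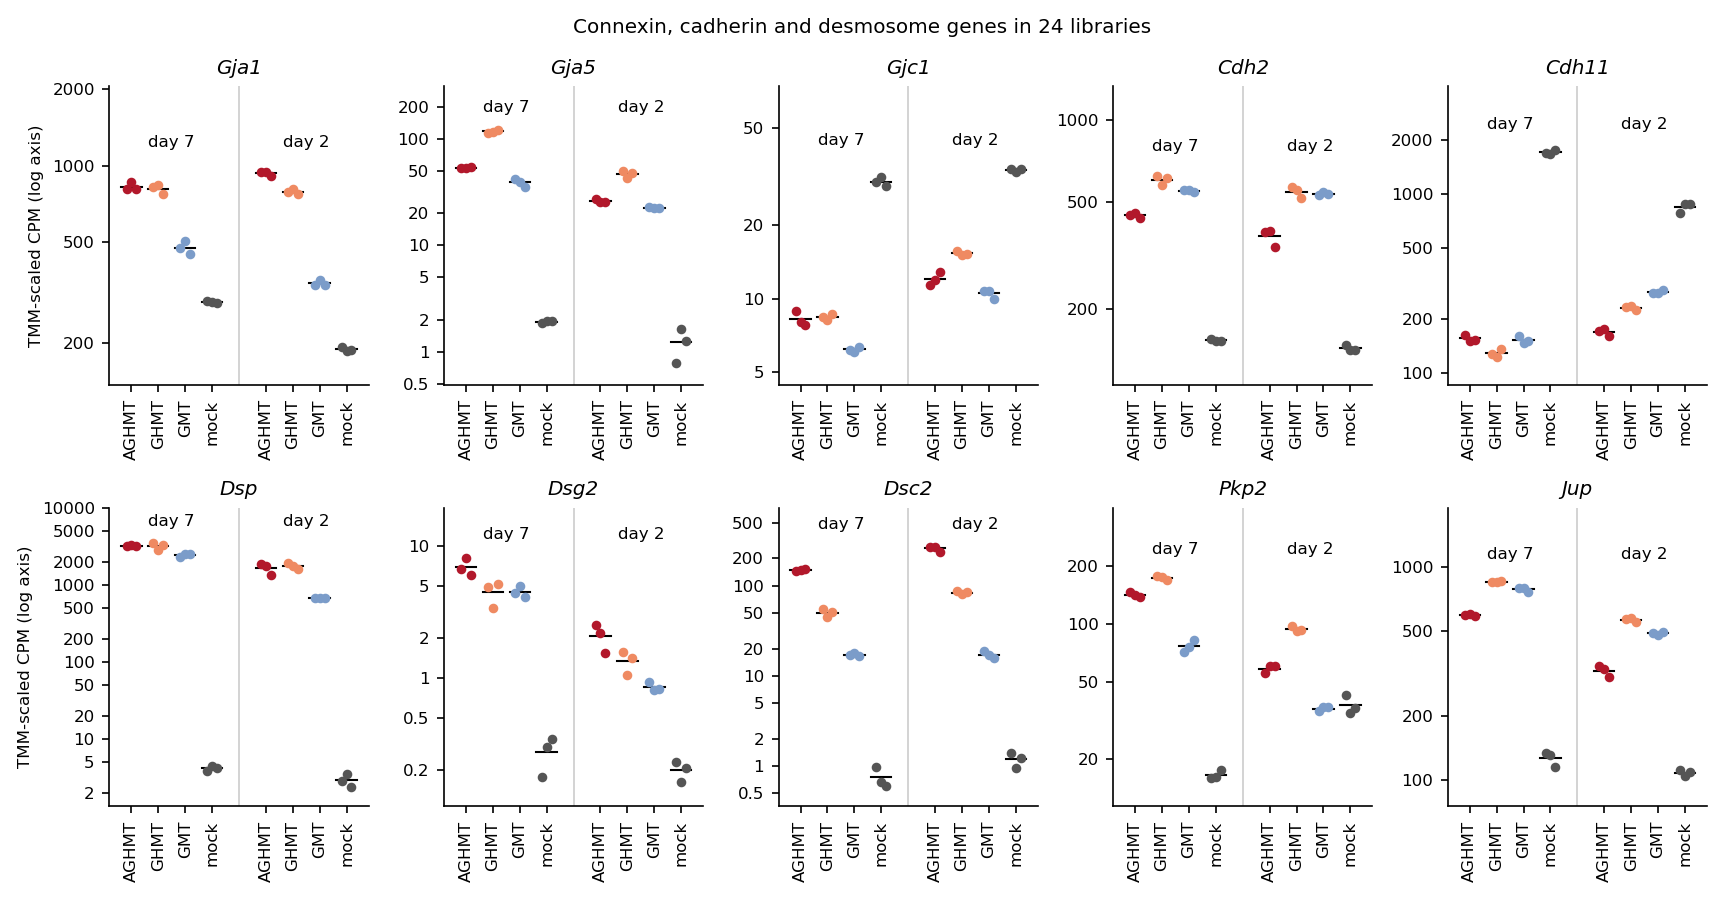
TMM-scaled CPM of each gene in all 24 libraries (y axis, log scale; 1 point per library, bar at the mean of 3), for AGHMT, GHMT, GMT and mock at day 7 and day 2. Dsp averaged 3204 CPM in AGHMT and 4.18 CPM in mock libraries of day 7, while Cdh11 averaged 156 and 1712 CPM in the same groups.

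Gja1 (GRCm38, chr10:56377330-56402513, plus strand) encodes connexin 43, the main gap junction protein of working ventricular muscle, which fibroblasts make too. It was present in mock cells and higher under each cocktail at both days, most of all under AGHMT and GHMT. At day 7 Gja1 was at 807, 866 and 807 CPM in AGHMT, 822, 839 and 772 in GHMT, 474, 503 and 451 in GMT and 295, 291 and 287 in mock libraries. AGHMT and GHMT libraries overlapped, GMT libraries lay below both, and mock libraries lay below all of them. At day 2 it was at 942, 948 and 911 CPM in AGHMT, 788, 811 and 774 in GHMT, 339, 354 and 339.5 in GMT and 194, 186 and 189 in mock libraries. No 2 groups overlapped at that day. Against mock, the log2 fold changes of day 7 were 1.51 ± 0.04 under AGHMT, 1.48 ± 0.04 under GHMT and 0.71 ± 0.04 under GMT (largest edgeR adjusted p = 2.13e-13). Those of day 2 were 2.30 ± 0.05 under AGHMT, 2.06 ± 0.05 under GHMT and 0.86 ± 0.04 under GMT (largest edgeR adjusted p = 6.98e-15). The test of the difference between days gave -0.79 ± 0.06 (edgeR adjusted p = 8.77e-11) under AGHMT and -0.58 ± 0.06 (edgeR adjusted p = 2.36e-08) under GHMT, so the gap to mock was wider at day 2. Mock cells themselves gained Gja1 with time, by 0.62 ± 0.04 (edgeR adjusted p = 1.46e-11), while in AGHMT cells it fell, with a log2 difference of -0.18 ± 0.04 (edgeR adjusted p = 0.00142). In GHMT cells the change with time was 0.04 ± 0.04 (edgeR adjusted p = 0.527) and passed no threshold. GMT cells gained 0.47 ± 0.04 (edgeR adjusted p = 2.65e-09).

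Gja5 (GRCm38, chr3:96904693-97077416, plus strand) encodes connexin 40, the gap junction protein of atrial muscle and of the ventricular conduction system, also made by arterial endothelium. It was low in mock cells and higher under every cocktail, with its highest level under GHMT. At day 7 Gja5 was at 53.3, 52.9 and 55.1 CPM in AGHMT, 115, 116 and 122 in GHMT, 42.0, 39.8 and 35.4 in GMT and 1.86, 1.93 and 1.93 in mock libraries. No 2 groups overlapped, and the GHMT libraries were the highest of all 24. The day 2 values were 27.3, 25.5 and 25.7 CPM in AGHMT, 50.1, 43.4 and 47.5 in GHMT, 23.1, 22.3 and 22.5 in GMT and 0.787, 1.62 and 1.26 in mock libraries. GHMT was again highest, without overlap between groups. Against mock at day 7, the log2 fold changes were 4.81 ± 0.10 under AGHMT, 5.95 ± 0.10 under GHMT and 4.35 ± 0.10 under GMT (largest edgeR adjusted p = 5.41e-22). Against mock at day 2 they were 4.41 ± 0.11 under AGHMT, 5.25 ± 0.11 under GHMT and 4.20 ± 0.12 under GMT (largest edgeR adjusted p = 1.82e-20). GHMT exceeded GMT by 1.59 ± 0.07 (edgeR adjusted p = 7.69e-16) at day 7 and by 1.05 ± 0.07 (edgeR adjusted p = 6.72e-12) at day 2. AGHMT lay below GHMT, with a log2 fold change of -1.13 ± 0.07 (edgeR adjusted p = 4.76e-13) at day 7 and -0.84 ± 0.07 (edgeR adjusted p = 3.70e-10) at day 2. Gja5 was also higher at the later time in each culture: day 7 exceeded day 2 by 1.04 ± 0.07 (edgeR adjusted p = 5.96e-12) in AGHMT, 1.33 ± 0.07 (edgeR adjusted p = 3.20e-14) in GHMT, 0.79 ± 0.07 (edgeR adjusted p = 1.93e-09) in GMT and 0.63 ± 0.18 (edgeR adjusted p = 0.00372) in mock cells. The locus shares 165 exonic bases with Gpr89 on the opposite strand, and the strand setting of the counting is not given in the sources used here. Among 14 endothelial markers, Cldn5 was at 0.0211 CPM or less and the arterial connexin gene Gja4 at 0.348 CPM or less in every group mean. The summed markers were 14.6 to 14.9 CPM in AGHMT, 7.59 to 8.79 CPM in GHMT and 10.5 to 11.3 CPM in GMT against 24.1 to 27.3 CPM in mock libraries of day 7. At day 2 they were 17.6 to 19.8 CPM in AGHMT, 8.71 to 9.56 CPM in GHMT and 9.94 to 10.5 CPM in GMT against 15.2 to 16.7 CPM in mock libraries, so that AGHMT was above mock. Of the 11 tested, there were 4 higher and 4 lower under AGHMT, 2 higher and 5 lower under GHMT and 2 higher and 6 lower under GMT at day 7, and 4 higher and 4 lower under AGHMT, 1 higher and 7 lower under GHMT and 0 higher and 6 lower under GMT at day 2. At day 7, 38.6%, 36.3% and 37.1% of all genes were called higher under AGHMT, GHMT and GMT, and 38.1%, 35.6% and 36% lower. At day 2 the shares were 38%, 34.9% and 33.9% higher, and 37.4%, 33.3% and 33.1% lower. The part of the endothelial markers in the Gja5 results was not tested.

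The RefSeq promoter windows of Gja1 (GRCm38.p6, chr10:56377050-56377349, plus strand) and Gja5 (GRCm38.p6, chr3:97032152-97032451, plus strand), 250 bases before to 50 after the gene start, are shown to set the start of the connexin that mock cells already made beside that of the one they barely made. The letters searched, on both strands, were AGATAA and TGATAA for GATA factors, AGGTGT for T-box factors, CATCTG for HAND factors, and CTA followed after 4 of any base by TAG for MEF2 factors, and none of them contains another. Among the windows of 32851 genes, 11.2% held AGATAA, 9.05% TGATAA, 13.7% AGGTGT, 17.2% CATCTG and 3.69% the MEF2 letters. Capitals in Gja1 mark TTATCT, which is AGATAA read on the minus strand, with its first base at -135 when the first base of the gene counts as 1. No letters searched were found in the Gja5 window, which says nothing about sites elsewhere; its start lies inside the longer span of the gene annotation given above.
Gja1 promoter: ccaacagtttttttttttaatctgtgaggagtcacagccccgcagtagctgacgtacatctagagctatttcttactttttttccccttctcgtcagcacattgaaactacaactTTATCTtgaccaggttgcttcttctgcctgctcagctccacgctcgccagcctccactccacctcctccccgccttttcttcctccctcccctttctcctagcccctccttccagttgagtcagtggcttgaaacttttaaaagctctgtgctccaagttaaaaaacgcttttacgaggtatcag
Gja5 promoter: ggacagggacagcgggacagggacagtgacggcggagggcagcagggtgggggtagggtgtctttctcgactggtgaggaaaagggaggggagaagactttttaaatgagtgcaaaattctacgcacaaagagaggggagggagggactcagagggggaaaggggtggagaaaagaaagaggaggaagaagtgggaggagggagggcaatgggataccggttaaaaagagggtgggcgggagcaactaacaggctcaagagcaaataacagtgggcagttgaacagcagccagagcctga

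Gjc1 (GRCm38, chr11:102799579-102819700, minus strand) encodes connexin 45, found in the nodes of the heart and in its embryonic muscle, and it moved the other way. At day 7 Gjc1 was at 8.93, 7.99 and 7.82 CPM in AGHMT, 8.40, 8.21 and 8.69 in GHMT, 6.17, 6.05 and 6.36 in GMT and 30.0, 31.4 and 28.9 in mock libraries. Every mock library was above every cocktail library, and GMT libraries were the lowest. Libraries of day 2 stood at 11.4, 11.9 and 12.8 CPM in AGHMT, 15.7, 15.1 and 15.2 in GHMT, 10.8, 10.7 and 10.0 in GMT and 34.0, 32.8 and 34.0 in mock libraries. The log2 fold changes from mock at day 7 were -1.87 ± 0.06 under AGHMT, -1.84 ± 0.06 under GHMT and -2.28 ± 0.06 under GMT (largest edgeR adjusted p = 1.60e-19). For day 2 the values were -1.48 ± 0.05 under AGHMT, -1.13 ± 0.05 under GHMT and -1.68 ± 0.06 under GMT (largest edgeR adjusted p = 1.18e-15). The level fell between the days in the transduced cultures, with log2 differences of -0.55 ± 0.06 (edgeR adjusted p = 5.53e-08) in AGHMT, -0.86 ± 0.06 (edgeR adjusted p = 1.45e-11) in GHMT and -0.76 ± 0.06 (edgeR adjusted p = 4.59e-10) in GMT cells. GHMT exceeded GMT by 0.44 ± 0.07 (edgeR adjusted p = 6.64e-06) at day 7.

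Per kilobase of exons, the makeup of the 3 connexins differed between transduced and mock cells. Gja1 held 88.0% ± 0.597 (SD, n = 3) of the connexin level per length in AGHMT, 78.0% ± 1.30 in GHMT, 85.2% ± 0.740 in GMT and 81.7% ± 0.545 in mock libraries of day 7. Gja5 held 10.2% ± 0.515, 20.3% ± 1.21 and 12.5% ± 0.756 in AGHMT, GHMT and GMT, against 0.957% ± 0.0313 in mock libraries. Gjc1 held 1.80% ± 0.165, 1.67% ± 0.0937 and 2.28% ± 0.182 in AGHMT, GHMT and GMT, against 17.3% ± 0.545 in mock libraries, so the next most abundant of the 3 was Gja5 in transduced cells and Gjc1 in mock cells. These shares depend on the length used: the exons of Gja1 add up to 10257 bases over all its transcripts but its longest transcript has 3889. With the longest transcript the Gja5 share was 6.39% ± 0.338, 13.2% ± 0.868 and 7.89% ± 0.504 in AGHMT, GHMT and GMT, against 0.618% ± 0.0203 in mock libraries.

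Cdh2 (GRCm38, chr18:16588877-16809246, minus strand) encodes N-cadherin, the classical cadherin of the intercalated disc, which many mesenchymal cells carry as well. It was higher under each cocktail at both days. At day 7 Cdh2 was at 447, 454 and 434 CPM in AGHMT, 620.4, 575 and 611 in GHMT, 552, 549.6 and 544 in GMT and 155, 153 and 153 in mock libraries. GHMT was highest, GMT next, AGHMT below both and mock lowest, with no overlap between them. At the earlier day the level was 385, 390.3 and 339 CPM in AGHMT, 566, 552 and 515 in GHMT, 531, 541 and 533 in GMT and 147, 142 and 142 in mock libraries. GHMT and GMT overlapped at that day. Relative to mock of day 7, log2 fold changes came to 1.54 ± 0.05 under AGHMT, 1.97 ± 0.05 under GHMT and 1.84 ± 0.05 under GMT (largest edgeR adjusted p = 1.29e-19). Relative to mock of day 2 they came to 1.37 ± 0.05 under AGHMT, 1.92 ± 0.05 under GHMT and 1.90 ± 0.05 under GMT (largest edgeR adjusted p = 1.42e-18). AGHMT was below GHMT, with log2 differences of -0.44 ± 0.05 (edgeR adjusted p = 2.15e-08) at day 7 and -0.55 ± 0.05 (edgeR adjusted p = 3.25e-10) at day 2. GHMT against GMT gave 0.14 ± 0.05 (edgeR adjusted p = 0.0235) at day 7. That call was lost with scaling by library totals alone (0.09, edgeR adjusted p = 0.111) and without GMT day 7 replicates 1, 2 or 3 or GHMT day 7 replicates 1 or 3, where the log2 value went as near to 0 as 0.11 and the edgeR adjusted p as high as 0.105. Between the days, AGHMT cells gained 0.26 ± 0.05 (edgeR adjusted p = 3.83e-05), while GMT cells showed 0.04 ± 0.05 (edgeR adjusted p = 0.533) and mock cells 0.10 ± 0.05 (edgeR adjusted p = 0.0857), both short of the threshold. GHMT cells gained 0.15 ± 0.05 (edgeR adjusted p = 0.0109), and that call was lost without GHMT day 7 replicate 1 or GHMT day 2 replicate 3, where the log2 value went as near to 0 as 0.11 and the edgeR adjusted p as high as 0.0794.

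Cdh11 (GRCm38, chr8:102632095-102785642, minus strand) encodes the mesenchymal cadherin also called OB-cadherin, and it fell under every cocktail. At day 7 Cdh11 was at 163, 152 and 154 CPM in AGHMT, 128, 123 and 136 in GHMT, 160.3, 147 and 152 in GMT and 1699, 1679 and 1757 in mock libraries. Mock libraries were above all others, AGHMT and GMT overlapped, and GHMT was lowest. At day 2 it was at 171, 177 and 162 CPM in AGHMT, 235, 236 and 225 in GHMT, 282, 281 and 292 in GMT and 782, 881 and 882 in mock libraries. No groups overlapped there, and AGHMT was lowest. Log2 fold changes at day 7 against mock were -3.45 ± 0.05 under AGHMT, -3.73 ± 0.06 under GHMT and -3.48 ± 0.05 under GMT (largest edgeR adjusted p = 1.86e-25), or 11-fold, 13.3-fold and 11.2-fold lower. Counted from the lowest fold change of 17576 genes, that put Cdh11 at place 291 under AGHMT, 238 under GHMT and 384 under GMT. At day 2 they were -2.32 ± 0.05 under AGHMT, -1.87 ± 0.05 under GHMT and -1.57 ± 0.05 under GMT (largest edgeR adjusted p = 4.82e-19). In mock cells Cdh11 at day 7 exceeded day 2 by 1.01 ± 0.05 (edgeR adjusted p = 1.20e-14). It fell by 0.85 in GHMT and 0.90 in GMT cells on the log2 scale (edgeR adjusted p = 6.46e-13 and 2.44e-13). In AGHMT cells the difference between the days was -0.12 ± 0.05 (edgeR adjusted p = 0.0479). The call was lost without AGHMT day 7 replicates 2 or 3 or AGHMT day 2 replicates 1 or 2, where the log2 value went as near to 0 as -0.09 and the edgeR adjusted p as high as 0.176. That call was also lost with DESeq2 (adjusted p = 0.0576), with RLE size factors (edgeR adjusted p = 0.0626), without a filter on counts (edgeR adjusted p = 0.0666) and with the compared libraries alone (edgeR adjusted p = 0.069). The fibroblast markers were lower in sum, at 21304 to 25585 CPM, 23564 to 26395 CPM and 21248 to 21823 CPM in AGHMT, GHMT and GMT against 43393 to 47635 CPM in mock libraries at day 2. Of the 11 at day 2, there were 2 higher and 9 lower under AGHMT, 2 higher and 9 lower under GHMT and 0 higher and 11 lower under GMT. At day 7, 10 were lower under each cocktail and 1 was higher under GHMT, and their part in the fall of Cdh11 was not tested. Of all genes at day 7, 38.6%, 36.3% and 37.1% were called higher under AGHMT, GHMT and GMT, and 38.1%, 35.6% and 36% lower. At day 2 the shares were 38%, 34.9% and 33.9% higher, and 37.4%, 33.3% and 33.1% lower. The 14 macrophage markers were all higher in mock libraries at day 7, with sums of 404 to 586 CPM, than at day 2, with 59.4 to 60.9 CPM. Under AGHMT and GHMT all 14, and under GMT 13, were lower than in mock libraries of day 7, with sums of 44.2 to 63.3 CPM in AGHMT, 63.9 to 68.6 CPM in GHMT and 57.7 to 71.6 CPM in GMT libraries. In mock cells 29.7% of all genes were called higher at day 7 than at day 2. The part of the macrophage markers in the results was not tested.

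Set side by side per kilobase of exons, the 2 cadherins changed places. Cdh2 made up 75.9% ± 0.806 (SD, n = 3) of their joint level in AGHMT, 83.8% ± 0.495 in GHMT and 79.8% ± 0.676 in GMT, against 9.01% ± 0.226 in mock libraries of day 7. At day 2 the shares were 70.7% ± 0.759, 72.1% ± 0.530 and 67.4% ± 0.568 in AGHMT, GHMT and GMT, against 15.8% ± 1.21 in mock libraries. The longest transcripts in place of all exons gave 76.9% ± 0.783, 84.5% ± 0.477 and 80.7% ± 0.654 in AGHMT, GHMT and GMT against 9.47% ± 0.236 in mock libraries at day 7.

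**Figure D3:**
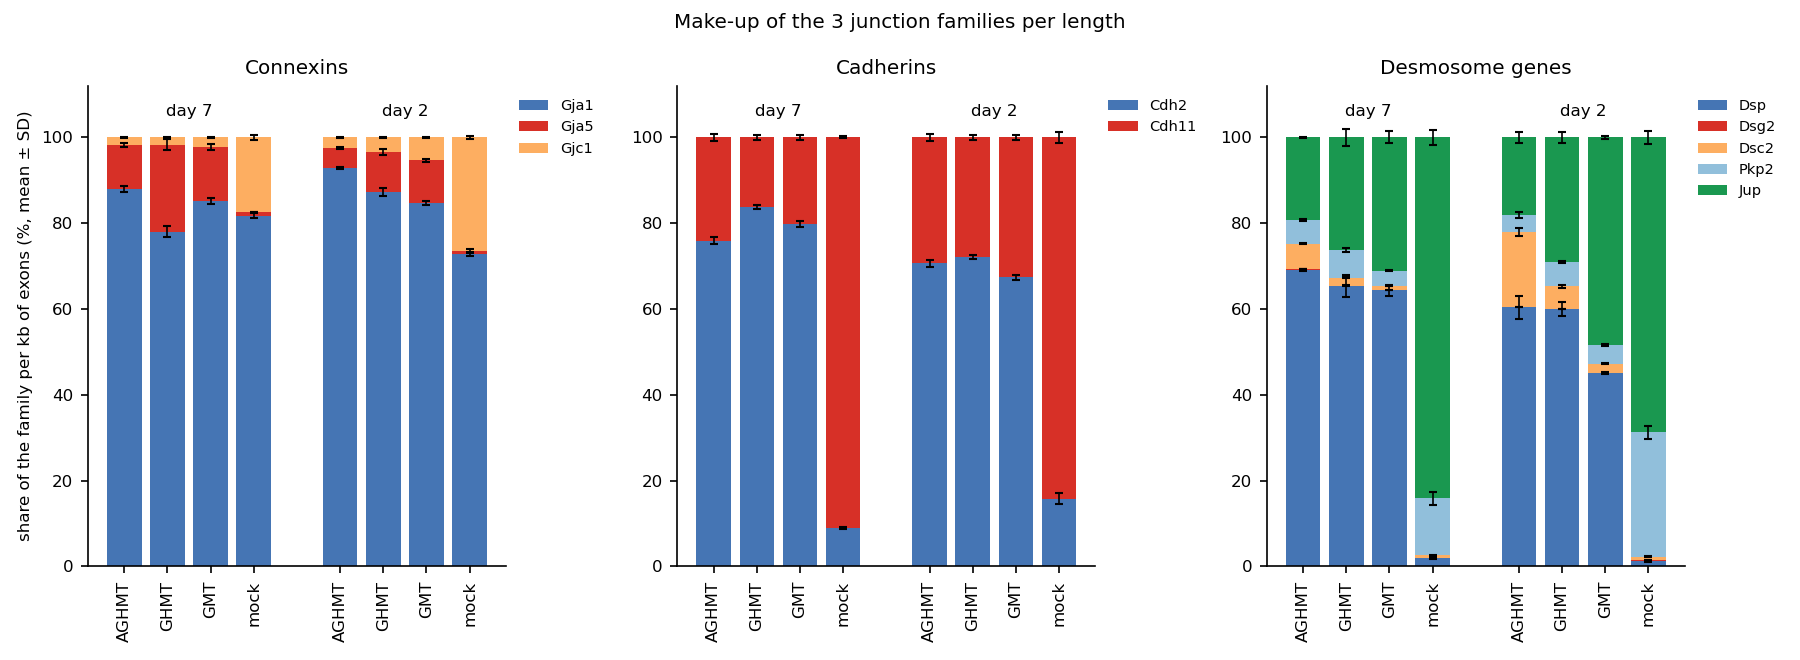
Share of each gene in its family's level per kilobase of exons (y axis, %; stacked means of 3 libraries, error bars ± SD of each gene's own share at its upper edge) in AGHMT, GHMT, GMT and mock at day 7 and day 2, for connexins, the 2 cadherins and desmosome genes. Cdh2 takes 75.9% of the cadherin bar in AGHMT and 9.01% in mock at day 7, and Dsp takes 69.1% and 1.86% of the desmosome bar in the same groups.

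Dsp (GRCm38, chr13:38151294-38198577, plus strand) encodes desmoplakin, which anchors the desmosome to intermediate filaments, made of desmin in heart muscle. It showed the largest fold change of the 10 genes against mock in every one of the 6 comparisons. At day 7 Dsp was at 3163, 3233 and 3214 CPM in AGHMT, 3492, 2814 and 3300.3 in GHMT, 2317, 2534 and 2489 in GMT and 3.81, 4.52 and 4.21 in mock libraries. AGHMT and GHMT overlapped, GMT was below both, and mock libraries were at a few CPM. The day 2 values were 1844, 1738 and 1347 CPM in AGHMT, 1901, 1776 and 1616 in GHMT, 684, 676 and 684 in GMT and 2.86, 3.55 and 2.42 in mock libraries. AGHMT and GHMT overlapped there too, and GMT was below them. Against mock at day 7, the log2 fold changes were 9.58 ± 0.14 under AGHMT, 9.58 ± 0.14 under GHMT and 9.19 ± 0.14 under GMT (largest edgeR adjusted p = 6.00e-26), or 766-fold, 765-fold and 585-fold. At day 2 they were 9.12 ± 0.14 under AGHMT, 9.22 ± 0.14 under GHMT and 7.85 ± 0.13 under GMT (largest edgeR adjusted p = 1.68e-24). By fold change at day 7, Dsp stood at place 58 under AGHMT, 37 under GHMT and 30 under GMT, counted from the highest of 17576 genes. GHMT exceeded GMT by 0.39 ± 0.09 (edgeR adjusted p = 0.00106) at day 7 and by 1.37 ± 0.09 (edgeR adjusted p = 3.31e-12) at day 2. GMT cells of day 7 exceeded those of day 2 by 1.84 ± 0.09 (edgeR adjusted p = 2.27e-14), GHMT cells by 0.86 ± 0.09 (edgeR adjusted p = 1.60e-08) and AGHMT cells by 0.96 ± 0.09 (edgeR adjusted p = 1.77e-09). AGHMT against GHMT gave 0.00 ± 0.09 (edgeR adjusted p = 0.996) at day 7 and -0.10 ± 0.09 (edgeR adjusted p = 0.352) at day 2, short of the threshold. The value of AGHMT day 2 replicate 3 was the lowest of its group, and without it the day 2 value was 0.02. Exons of Dsp overlap Gm10129, a transcript model on the opposite strand, over 499 bases.

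The RefSeq promoter window of Dsp (GRCm38.p6, chr13:38151044-38151343, plus strand) is shown because Dsp changed most of the 10 genes. Capitals mark the T-box letters AGGTGT, which begin at -219 and at 5 on the same count, and 13.7% of all windows hold them at least once. The other letters searched were not found in it. The window of Jup held AGGTGT once, at -19 (13.7% of all windows). A match of letters is a description and not a bound site, and the windows of the remaining genes were not used here.
Dsp promoter: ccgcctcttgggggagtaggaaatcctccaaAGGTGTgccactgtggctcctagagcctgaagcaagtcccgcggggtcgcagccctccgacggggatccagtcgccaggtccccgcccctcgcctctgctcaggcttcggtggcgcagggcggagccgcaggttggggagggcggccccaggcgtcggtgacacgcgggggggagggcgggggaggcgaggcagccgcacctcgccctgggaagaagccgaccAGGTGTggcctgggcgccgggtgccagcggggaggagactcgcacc

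Dsc2 (GRCm38, chr18:20030633-20059554, minus strand) encodes desmocollin 2, one of the pair of desmosomal cadherins of heart muscle, and it was higher with each larger cocktail. At day 7 Dsc2 was at 147, 150.1 and 152 CPM in AGHMT, 54.3, 45.1 and 50.5 in GHMT, 17.0, 17.8 and 16.6 in GMT and 0.975, 0.663 and 0.602 in mock libraries. The groups stood in the order AGHMT, GHMT, GMT and mock with no overlap. Libraries of day 2 stood at 268, 270.5 and 238 CPM in AGHMT, 86.2, 80.6 and 83.8 in GHMT, 18.6, 17.1 and 15.7 in GMT and 1.37, 0.947 and 1.23 in mock libraries. The order was the same, again without overlap. The log2 fold changes from mock at day 7 were 7.63 ± 0.11 under AGHMT, 6.05 ± 0.12 under GHMT and 4.51 ± 0.13 under GMT (largest edgeR adjusted p = 5.43e-20). Those at day 2 were 7.78 ± 0.11 under AGHMT, 6.15 ± 0.11 under GHMT and 3.86 ± 0.12 under GMT (largest edgeR adjusted p = 2.47e-19). AGHMT exceeded GHMT by 1.58 ± 0.07 (edgeR adjusted p = 8.86e-16) at day 7 and 1.63 ± 0.07 (edgeR adjusted p = 2.94e-16) at day 2. GHMT exceeded GMT by 1.54 ± 0.07 (edgeR adjusted p = 7.14e-15) at day 7 and 2.28 ± 0.07 (edgeR adjusted p = 2.24e-18) at day 2. Dsc2 was also lower at day 7 than at day 2, with log2 differences of -0.79 ± 0.06 (edgeR adjusted p = 1.41e-10) in AGHMT and -0.74 ± 0.07 (edgeR adjusted p = 1.50e-09) in GHMT cells, while GMT cells showed 0.00 ± 0.08 (edgeR adjusted p = 1). In mock cells the difference was -0.64 ± 0.22 (edgeR adjusted p = 0.0159), with ranges that overlap between the days, and the call was lost without mock day 7 replicates 2 or 3 or mock day 2 replicate 1, where the log2 value went as near to 0 as -0.51 and the edgeR adjusted p as high as 0.0841. The difference from mock was not called different between the days under AGHMT, at -0.14 ± 0.24 (edgeR adjusted p = 0.648), or under GHMT, at -0.10 ± 0.24 (edgeR adjusted p = 0.776).

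Dsg2 (GRCm38, chr18:20558074-20604521, plus strand) encodes desmoglein 2, the partner of desmocollin 2, and it had few counts throughout. At day 7 Dsg2 was at 6.70, 8.09 and 6.03 CPM in AGHMT, 4.93, 3.40 and 5.18 in GHMT, 4.39, 4.97 and 4.11 in GMT and 0.177, 0.301 and 0.349 in mock libraries. AGHMT libraries were above all others, GHMT and GMT overlapped, and mock libraries were lowest. At the earlier day the level was 2.52, 2.20 and 1.55 CPM in AGHMT, 1.59, 1.06 and 1.43 in GHMT, 0.930, 0.817 and 0.831 in GMT and 0.233, 0.162 and 0.209 in mock libraries. AGHMT and GHMT overlapped at that day. The mock values rest on 6, 10 and 11 counts at day 7 and 8, 6 and 7 counts at day 2, so counting error is wide there. Relative to mock of day 7, log2 fold changes came to 4.64 ± 0.24 under AGHMT, 4.01 ± 0.26 under GHMT and 4.01 ± 0.26 under GMT (largest edgeR adjusted p = 4.89e-13). Against mock at day 2 they were 3.35 ± 0.31 under AGHMT, 2.74 ± 0.35 under GHMT and 2.08 ± 0.37 under GMT (largest edgeR adjusted p = 2.77e-05). Dsg2 was higher at day 7 than at day 2, by 1.73 ± 0.16 (edgeR adjusted p = 2.13e-09) in AGHMT, 1.72 ± 0.19 (edgeR adjusted p = 4.33e-08) in GHMT and 2.38 ± 0.20 (edgeR adjusted p = 3.72e-10) in GMT cells. AGHMT exceeded GHMT by 0.63 ± 0.14 (edgeR adjusted p = 7.85e-04) at day 7, and GHMT against GMT gave 0.00 ± 0.15 (edgeR adjusted p = 0.992). At day 2 the calls were less firm: AGHMT against GHMT gave 0.61 ± 0.22 (edgeR adjusted p = 0.0196). It was lost with the compared libraries alone (edgeR adjusted p = 0.0575) and without AGHMT day 2 replicate 1 or GHMT day 2 replicate 2, where the log2 value went as near to 0 as 0.45 and the edgeR adjusted p as high as 0.121. GHMT against GMT gave 0.66 ± 0.25 (edgeR adjusted p = 0.0379). This one was lost with library totals alone (0.54, edgeR adjusted p = 0.0781) and without GHMT day 2 replicates 1 or 3 or GMT day 2 replicates 1, 2 or 3, where the log2 value went as near to 0 as 0.53 and the edgeR adjusted p as high as 0.156. The antisense transcript Gm16090 shares 330 exonic bases with Dsg2, and without a known strand setting their reads cannot be told apart.

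Pkp2 (GRCm38, chr16:16213318-16272712, plus strand) encodes plakophilin 2, the plakophilin of the cardiac desmosome, and was the member whose difference from mock changed most between the days. At day 7 Pkp2 was at 145, 141 and 137 CPM in AGHMT, 177, 174 and 169 in GHMT, 71.7, 76.1 and 81.9 in GMT and 16.0, 16.0 and 17.5 in mock libraries. GHMT was highest, then AGHMT, GMT and mock, with no overlap. At day 2 it was at 55.4, 60.1 and 60.3 CPM in AGHMT, 97.4, 92.2 and 92.9 in GHMT, 35.1, 37 and 36.9 in GMT and 42.5, 34.5 and 36.6 in mock libraries. GMT and mock libraries overlapped. Log2 fold changes at day 7 against mock were 3.10 ± 0.07 under AGHMT, 3.39 ± 0.07 under GHMT and 2.21 ± 0.07 under GMT (largest edgeR adjusted p = 6.13e-20). At day 2 AGHMT gave 0.63 ± 0.06 (edgeR adjusted p = 1.37e-09), GHMT 1.31 ± 0.06 (edgeR adjusted p = 8.43e-16) and GMT -0.06 ± 0.06 (edgeR adjusted p = 0.413). In mock cells Pkp2 was lower at day 7, with a log2 difference of -1.20 ± 0.07 (edgeR adjusted p = 1.46e-13). It was higher at day 7 under the cocktails, by 1.27 ± 0.06 (edgeR adjusted p = 3.83e-15) in AGHMT, 0.88 ± 0.06 (edgeR adjusted p = 4.14e-12) in GHMT and 1.08 ± 0.06 (edgeR adjusted p = 2.78e-13) in GMT cells. GHMT exceeded GMT by 1.18 ± 0.06 (edgeR adjusted p = 1.41e-14) at day 7 and 1.37 ± 0.06 (edgeR adjusted p = 1.39e-15) at day 2. AGHMT was below GHMT, at -0.30 ± 0.06 (edgeR adjusted p = 1.15e-04) at day 7 and -0.68 ± 0.06 (edgeR adjusted p = 5.87e-10) at day 2.

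Jup (GRCm38, chr11:100368958-100397763, minus strand) encodes plakoglobin, the armadillo protein that serves both desmosomes and adherens junctions. Mock cells already made it, and it was higher under each cocktail at both days. At day 7 Jup was at 596, 599.5 and 590.2 CPM in AGHMT, 846, 854 and 857 in GHMT, 800.5, 793 and 762 in GMT and 134, 130.0 and 115 in mock libraries. GHMT was above GMT, AGHMT was below both, and mock was lowest, with no overlap. The day 2 values were 341, 330.3 and 304 CPM in AGHMT, 568, 578 and 552 in GHMT, 487, 479 and 495 in GMT and 111, 104 and 108 in mock libraries. The order was the same, without overlap. Against mock at day 7, the log2 fold changes were 2.24 ± 0.05 under AGHMT, 2.75 ± 0.05 under GHMT and 2.64 ± 0.05 under GMT (largest edgeR adjusted p = 1.41e-22). For day 2 the values were 1.59 ± 0.05 under AGHMT, 2.39 ± 0.05 under GHMT and 2.18 ± 0.05 under GMT (largest edgeR adjusted p = 1.28e-19). AGHMT was below GHMT, at -0.52 ± 0.05 (edgeR adjusted p = 1.61e-09) at day 7 and -0.80 ± 0.05 (edgeR adjusted p = 5.20e-13) at day 2. GHMT against GMT was 0.12 ± 0.05 (edgeR adjusted p = 0.0527) at day 7, just short of the threshold, and DESeq2 gave an adjusted p of 0.025. At day 2 the same comparison gave 0.22 ± 0.05 (edgeR adjusted p = 5.37e-04), and with scaling by library totals alone it was 0.10 with an edgeR adjusted p of 0.0701.

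Per kilobase of exons the 5 desmosome genes had a different makeup in transduced and mock cells. Dsp held 69.1% ± 0.277 (SD, n = 3) of their joint level in AGHMT, 65.4% ± 2.46 in GHMT and 64.4% ± 1.29 in GMT, against 1.86% ± 0.213 in mock libraries of day 7. Jup held 19.3% ± 0.170, 26.3% ± 2.06 and 31.0% ± 1.4 in AGHMT, GHMT and GMT, against 84.1% ± 1.65 in mock libraries. Dsg2 stayed at 0.175% or less in all 8 groups. These shares depend on the length used. The exons of Jup add up to 6436 bases, but its longest transcript has 3205, where Dsp has 9659 and 9592. Per kilobase of the longest transcript, Dsp averaged 334, 334 and 255 CPM in AGHMT, GHMT and GMT libraries of day 7. Jup averaged 186, 266 and 245 CPM on that length, so Dsp and Jup were close under GMT. In mock libraries they averaged 0.436 and 39.4 CPM. The desmosomal cadherins shifted against each other, since Dsc2 had 21.9, 11.3 and 3.83 counts for each count of Dsg2 in AGHMT, GHMT and GMT libraries of day 7, against 3.14 in mock libraries, where single libraries ran from 1.73 to 5.50. At day 2 the ratio was 127, 63.0 and 19.9 in AGHMT, GHMT and GMT, against 5.86 in mock libraries. These ratios of counts are not corrected for length. Their change between groups does not depend on length as long as each gene uses the same transcripts in every group, which was not examined.

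Desmosomes are also epithelial structures, so markers of epithelia were read beside these genes. Epcam, Cdh1, Cldn7 and Esrp1, which define epithelial cells, had group means of 0.223 CPM or less throughout. The list of 15 epithelial and mesothelial markers summed to 230.0 to 252 CPM in AGHMT, 724 to 783 CPM in GHMT, 535 to 567 CPM in GMT and 288 to 319 CPM in mock libraries of day 7. Msln, a mesothelial surface protein, averaged 122 CPM in AGHMT, 570.3 in GHMT, 147 in GMT and 65.1 in mock libraries. Upk1b, a uroplakin, averaged 58.4 CPM in AGHMT, 89.5 in GHMT, 279 in GMT and 47.4 in mock libraries. Of its 11 tested genes, 3 were higher and 7 lower under AGHMT, 5 and 6 under GHMT, and 5 and 5 under GMT at day 7. The 12 keratinocyte markers summed to 362 to 375 CPM, 259.7 to 287 CPM and 298 to 326 CPM in AGHMT, GHMT and GMT against 42.3 to 44.7 CPM in mock libraries. Of the 10 of them tested, there were 5 higher and 1 lower under AGHMT, 4 higher and 1 lower under GHMT and 5 higher and 1 lower under GMT at day 7. Beside the counts of both lists, 38.6%, 36.3% and 37.1% of all genes were called higher under AGHMT, GHMT and GMT at day 7. The shares called lower were 38.1%, 35.6% and 36%. Perp, a membrane protein of desmosomes, alone averaged 344 CPM in AGHMT, 256 in GHMT, 303 in GMT and 31.1 in mock libraries. Krt5 and Trp63, which define the basal keratinocyte, stayed at 0.807 and 1.82 CPM or less in every group mean, and Dsg3 had no count in mock libraries or in GMT libraries of day 7. At day 2 the epithelial and mesothelial markers summed to 46.1 to 56.0 CPM in AGHMT, 86.2 to 88.4 CPM in GHMT and 106 to 110 CPM in GMT. Mock libraries had 67.8 to 77.1 CPM at that day, so AGHMT was below mock. The keratinocyte markers of day 2 summed to 164 to 219 CPM in AGHMT, 107 to 117 CPM in GHMT and 154 to 156 CPM in GMT. Mock libraries had 23.8 to 24.9 CPM. The part of these epithelial and keratinocyte markers in the desmosome results was not tested. The 12 skeletal muscle markers summed to 892 to 956 CPM in AGHMT, 61.6 to 71.7 CPM in GHMT and 74.8 to 77.1 CPM in GMT at day 7. Mock libraries had 24.4 to 27.0 CPM. Myl1 alone averaged 740.0 CPM of a mean sum of 931 CPM in AGHMT, and 0.799 CPM of 26.0 CPM in mock libraries. Myf5 had no count in any library and the mean of Myod1 stayed at 0.0552 CPM or less. The other markers of this list are not given one by one. Their list summed at day 2 to 96.0 to 124 CPM in AGHMT, 27.2 to 33.0 CPM in GHMT and 14.4 to 15.5 CPM in GMT. Mock libraries of day 2 had 47.0 to 58.6 CPM. The 8 smooth muscle markers summed to 7700.3 to 8083 CPM in AGHMT, 6592 to 6801 CPM in GHMT, 4398 to 4621 CPM in GMT and 4775 to 5331 CPM in mock libraries of day 7. At day 2 all cocktails were below mock, with 3696 to 4328 CPM in AGHMT and 6175 to 6243 CPM in GHMT. GMT libraries had 3249 to 3319 CPM and mock libraries 6530 to 7116 CPM. This list includes Des, which is read below among the scaffolds of the disc. The part of the muscle markers in the desmosome results was not tested.

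The 2 cocktails that differ by Hand2, and the 2 that differ by Akt1, were set against each other. GHMT against GMT had 7 genes higher and 1 lower at day 7, where 37.5% of all genes were called (18.7% higher, 18.8% lower). At day 2 there were 8 higher and 1 lower, where 44.8% of all genes were called (23.1% higher, 21.7% lower). Between GHMT and GMT, 9 of the 10 genes did not overlap at either day, where 49.6% of all genes did not at day 7 and 56.9% at day 2. Cdh11 was the lower one at both days, and Gja1, Gja5, Gjc1, Dsp, Dsc2 and Pkp2 were higher at both. The largest of these differences was 4.87-fold for Dsc2 at day 2 and 3.02-fold for Gja5 at day 7. AGHMT against GHMT had 3 genes higher and 4 lower at day 7 (48.7% of all genes called, 25% higher and 23.6% lower), and 3 higher and 6 lower at day 2 (52.7%, 25.7% and 27%). Of the 10 genes, 7 did not overlap between AGHMT and GHMT at day 7 and 8 did not at day 2, where 57.5% and 52.8% of all genes did not. Dsc2 and Dsg2, the desmosomal cadherins, were higher under AGHMT at both days, while Gja5, Cdh2, Pkp2 and Jup were lower at both. Cdh11 differed in sign between the days, with 0.28 ± 0.05 (edgeR adjusted p = 6.03e-05) at day 7 and -0.45 ± 0.05 (edgeR adjusted p = 4.79e-08) at day 2. Among the genes that were not called, Gja1 gave 0.03 ± 0.04 (edgeR adjusted p = 0.626) and Gjc1 -0.03 ± 0.07 (edgeR adjusted p = 0.754) at day 7. GHMT libraries enter both comparisons, so a high GHMT value counts in each of them.

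**Figure D4:**
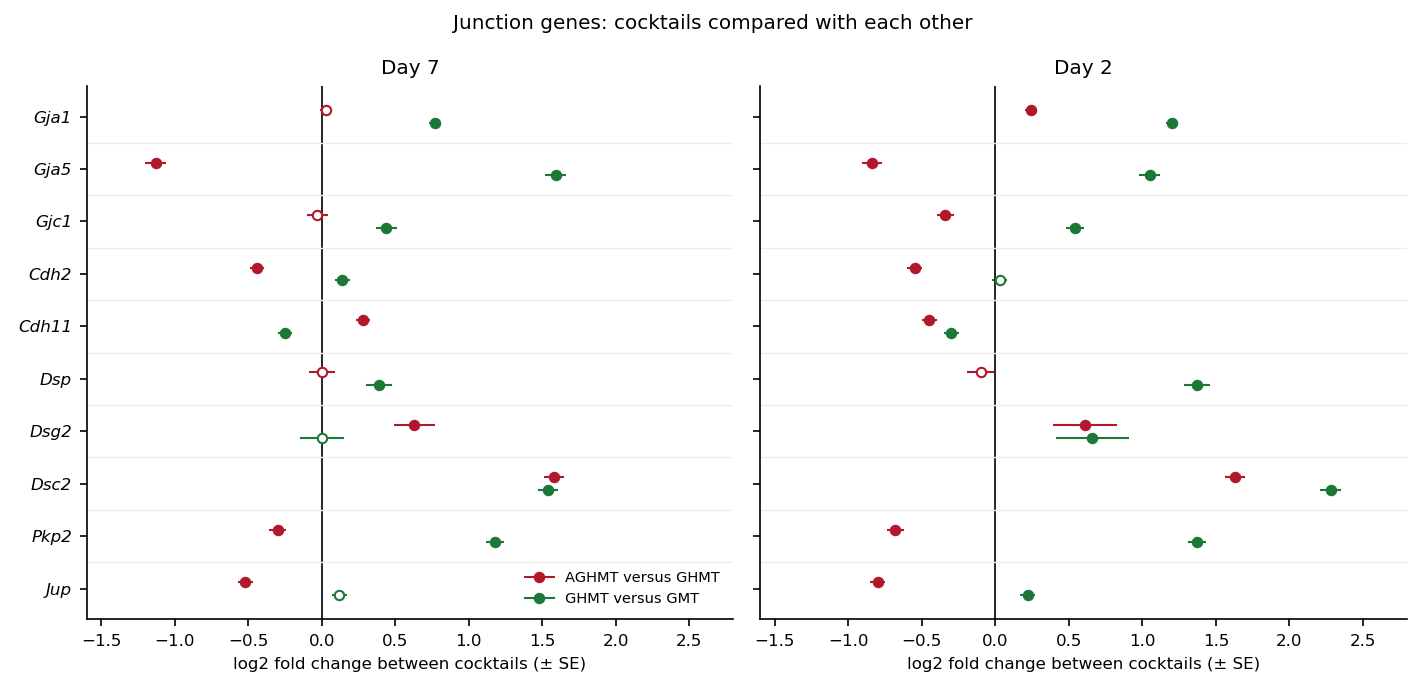
Log2 fold change of each gene in AGHMT over GHMT and in GHMT over GMT (x axis, point and SE bar) at day 7 (left) and day 2 (right); filled points were called, open points were not. Dsc2 lies right of 0 in all 4 comparisons, while Gja5 lies at -1.13 for AGHMT over GHMT and at 1.59 for GHMT over GMT at day 7.

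Day 7 against day 2 had 6 genes higher and 4 lower in AGHMT cells (54.5% of all genes called, 29.5% higher and 24.9% lower). In GHMT cells there were 6 higher and 3 lower (50.2%, 25.6% and 24.6%), and in GMT cells 6 higher and 2 lower (51.9%, 27.5% and 24.4%). In mock cells 5 were higher and 3 lower (55.5%, 29.7% and 25.8%). Of the 10 genes, 9 did not overlap between the days in AGHMT, GHMT and GMT cells and 8 did not in mock cells, where 55.6%, 56.7%, 65.7% and 64.5% of all genes did not. Gja5, Dsp and Jup were higher at day 7 in all 4 kinds of culture, and Gjc1 was lower in all 4. For Dsp in mock cells that difference was 0.50 ± 0.17 (edgeR adjusted p = 0.0131). Its call was lost without mock day 7 replicate 2 or mock day 2 replicate 3, where the log2 value went as near to 0 as 0.38 and the edgeR adjusted p as high as 0.075. For Gjc1 in mock cells it was -0.16 ± 0.05 (edgeR adjusted p = 0.00954). This call was lost with no filter for weakly expressed genes (-0.12, edgeR adjusted p = 0.21) and without mock day 7 replicate 3, where the log2 value went as near to 0 as -0.13 and the edgeR adjusted p as high as 0.064. For Dsc2 in mock cells it was -0.64 ± 0.22 (edgeR adjusted p = 0.0159), and its call was lost without mock day 7 replicates 2 or 3 or mock day 2 replicate 1, where the log2 value went as near to 0 as -0.51 and the edgeR adjusted p as high as 0.0841. Dsg2 and Pkp2 were higher at day 7 in all 3 transduced cultures, and Pkp2 fell in mock cells. The difference from mock itself was larger or smaller at day 7 than at day 2 for 7 genes under AGHMT, 6 under GHMT and 8 under GMT, where 50.9%, 49.3% and 49.5% of all genes were called. In these tests 4 genes had a higher and 3 a lower value at day 7 under AGHMT (24.8% and 26.1% of all genes), 3 and 3 under GHMT (23.3% and 26%), and 5 and 3 under GMT (24.3% and 25.3%). Without AGHMT day 2 replicate 3, 5 genes were called under AGHMT, and Cdh2 and Dsp were not among them. Gja1, Gjc1, Cdh11, Pkp2 and Jup were called under all 3 cocktails, and the libraries of mock cells enter all 3 tests.

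Other genes of the same junctions were read from lists made by gene family. Against mock at day 7, 38.6%, 36.3% and 37.1% of all genes were called higher under AGHMT, GHMT and GMT. The shares called lower were 38.1%, 35.6% and 36%, and these shares stand beside the counts of every list below. Of 20 other connexins and pannexins, 13 were tested, and against mock at day 7 there were 7 higher and 4 lower under AGHMT, 7 higher and 3 lower under GHMT and 5 higher and 4 lower under GMT. Their median log2 fold changes were 1.30 under AGHMT, 0.65 under GHMT and 0.81 under GMT. Gja3, the gene of connexin 46, averaged 17.6 CPM in AGHMT, 10.4 in GHMT, 7.31 in GMT and 0.202 in mock libraries, and rose under AGHMT by 6.42 ± 0.19 (edgeR adjusted p = 3.34e-20). Gjb2, the gene of connexin 26, averaged 0.884 CPM in AGHMT, 1.11 in GHMT, 2.67 in GMT and 14.1 in mock libraries, and AGHMT gave -3.99 ± 0.17 (edgeR adjusted p = 6.19e-17). Gjd4 averaged 7.66 CPM in AGHMT, 0.692 in GHMT, 0.0554 in GMT and 0.00985 in mock libraries. Panx1, a pannexin that forms membrane channels, averaged 13.8 CPM in AGHMT, 21.7 in GHMT, 17.9 in GMT and 13.8 in mock libraries.

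Of 17 other cadherins, 14 were tested, with 2 higher and 8 lower under AGHMT, 2 higher and 9 lower under GHMT and 2 higher and 11 lower under GMT at day 7. The list's median log2 fold change was -1.50 under AGHMT, -1.46 under GHMT and -1.69 under GMT. Cdh13, the lipid-anchored T-cadherin, went against the list and averaged 319 CPM in AGHMT, 468 in GHMT, 485 in GMT and 43.8 in mock libraries, and it gave 2.87 ± 0.05 (edgeR adjusted p = 5.59e-24) for AGHMT against mock. Cdh3, P-cadherin, averaged 128 CPM in AGHMT, 180.1 in GHMT, 20.5 in GMT and 250.1 in mock libraries, with a log2 fold change under GMT of -3.61 ± 0.07 (edgeR adjusted p = 2.78e-24). Cdh8 averaged 0.0633 CPM in AGHMT, 0.0960 in GHMT, 0.0740 in GMT and 11.7 in mock libraries. Cdh4, R-cadherin, averaged 1.6 CPM in AGHMT, 2.48 in GHMT, 3.35 in GMT and 12.1 in mock libraries. Cdh3, Cdh8 and Cdh4 were lower under all 3 cocktails. Epithelial Cdh1 and endothelial Cdh5 stayed at 0.223 and 0.724 CPM or less in all groups.

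Of 13 other desmosomal genes, 8 were tested, with 7 higher and 1 lower under AGHMT, 7 higher and 1 lower under GHMT and 6 higher and 1 lower under GMT at day 7. The list's median log2 fold change was 2.47 under AGHMT, 2.62 under GHMT and 2.14 under GMT. Perp rose under AGHMT by 3.47 ± 0.08 (edgeR adjusted p = 3.38e-22). Pkp1, plakophilin 1 of skin, averaged 14.3 CPM in AGHMT, 2.54 in GHMT, 1.77 in GMT and 0.202 in mock libraries, and AGHMT exceeded GHMT by 2.49 ± 0.11 (edgeR adjusted p = 8.11e-16). Pkp4 averaged 79.8 CPM in AGHMT, 55.0 in GHMT, 57.0 in GMT and 48.3 in mock libraries. Ppl, periplakin, averaged 1.54 CPM in AGHMT, 1.70 in GHMT, 2.19 in GMT and 5.03 in mock libraries. Pkp1 and Pkp4 were higher and Ppl was lower under all 3 cocktails. The skin genes Dsg1a, Dsg1b, Dsg3, Dsg4 and Dsc1 had too few counts to be tested.

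Of the 14 catenins, nectins and linkers at day 7, 8 were higher and 5 lower under AGHMT. There were 9 higher and 4 lower under GHMT and 7 higher and 5 lower under GMT. The shares of all genes called higher and lower were 38.6% and 38.1%, 36.3% and 35.6%, and 37.1% and 36% in the same order. The list's median log2 fold change was 0.13 under AGHMT, 0.27 under GHMT and 0.08 under GMT. Ctnna3, the alpha-T-catenin of heart muscle, averaged 52.1 CPM in AGHMT, 18 in GHMT, 7.14 in GMT and 0.101 in mock libraries, with AGHMT over mock at 8.95 ± 0.20 (edgeR adjusted p = 1.22e-22) and AGHMT over GHMT at 1.53 ± 0.09 (edgeR adjusted p = 5.88e-13). Ctnna1, the general alpha-catenin, averaged 1244 CPM in AGHMT, 1666 in GHMT, 924 in GMT and 364 in mock libraries. These alpha-catenin genes were higher under all 3 cocktails. Ctnnb1, beta-catenin, averaged 862 CPM in AGHMT, 941 in GHMT, 855 in GMT and 798 in mock libraries. Ctnna2, the neural alpha-catenin, averaged 0.932 CPM in AGHMT, 0.978 in GHMT, 0.854 in GMT and 24.1 in mock libraries. The adhesion receptor gene Nectin2 averaged 20.6 CPM in AGHMT, 34.3 in GHMT, 47.0 in GMT and 78.6 in mock libraries. Ctnna2 and Nectin2 were lower under all 3 cocktails, and Ctnnb1 was higher by 0.24 or less on the log2 scale.

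The 20 scaffolds and anchors of the disc had 14 higher and 4 lower under AGHMT, 14 higher and 4 lower under GHMT and 12 higher and 4 lower under GMT at day 7. Their median log2 fold change was 1.56 under AGHMT, 1.38 under GHMT and 0.80 under GMT. Des, the desmin filament to which desmoplakin binds in muscle, averaged 1949 CPM in AGHMT, 1310.3 in GHMT, 1401 in GMT and 93.1 in mock libraries and gave 4.39 ± 0.07 (edgeR adjusted p = 1.15e-25) for AGHMT against mock. Xirp2, a Xin protein of the disc, averaged 39.3 CPM in AGHMT, 2.08 in GHMT, 2.76 in GMT and 0.203 in mock libraries, and AGHMT exceeded GHMT by 4.24 ± 0.16 (edgeR adjusted p = 1.10e-16). Des and Xirp2 were higher under each of the 3 cocktails. Csrp3, a muscle LIM protein, averaged 15.2 CPM in AGHMT, 17.6 in GHMT, 132 in GMT and 0.0211 in mock libraries. Fhl2, another LIM protein, averaged 678 CPM in AGHMT, 508 in GHMT, 169.9 in GMT and 179.5 in mock libraries. Csrp3 was higher under all 3 cocktails, and Fhl2 was called higher under AGHMT and GHMT and not called under GMT (edgeR adjusted p = 0.215). Tjp1, the ZO-1 scaffold that binds connexin 43, averaged 175 CPM in AGHMT, 220.2 in GHMT, 310.3 in GMT and 153 in mock libraries. Tmem43, an inner nuclear membrane protein, averaged 152 CPM in AGHMT, 158 in GHMT, 149 in GMT and 174 in mock libraries. Tjp1 was higher and Tmem43 lower under all 3 cocktails.

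For each of the 10 genes, the closest pattern was sought by Pearson correlation of 8 group means of log2 CPM. The search covered 11581 named genes, all from the same libraries, and is given as a description. The 3 nearest genes were Rbm20, Casz1 and Tnnt2 for Dsp (r from 0.9963 to 0.9989), Alpk3, Lrrc2 and Myom2 for Jup (r from 0.9909 to 0.9921) and Nell2, Bgn and Prrx1 for Cdh11 (r from 0.9945 to 0.9953). They were Mob4, Akt2 and Sntg2 for Gja1 (r from 0.9885 to 0.9913), Snx21, Cbfa2t3 and Myo1d for Gja5 (r from 0.9919 to 0.9942) and Zfp9, Cdc25b and Ckap2l for Gjc1 (r from 0.9906 to 0.9927). For the remaining genes they were Bend7, Rab20 and Shb for Cdh2 (r from 0.9872 to 0.9912), Abra, Nt5dc1 and Hist1h2be for Dsg2 (r from 0.9939 to 0.9948), Gtf3c1, Hip1r and Nrgn for Dsc2 (r from 0.9904 to 0.9911) and Hist1h4i, Pim3 and Gmip for Pkp2 (r from 0.9798 to 0.9930). Tnnt2 and Myom2 are sarcomere genes, Rbm20 encodes a splicing factor of titin, Bgn a matrix proteoglycan, and Prrx1 a mesenchymal transcription factor. Among the 10 genes themselves, the correlation over 8 group means was 0.98 for Cdh2 with Jup, 0.97 for Gja5 with Dsp and with Jup, and -0.96 for Cdh11 with Dsp. Gja1 was nearest to Dsc2, at 0.94, and Dsc2 to Gja1.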

How the data were processed

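Total RNA was extracted with TRIzol from cells for 24 libraries, 3 in each of 8 groups, per the labels' protocols, and groups and replicate numbers came from the labels. Tools listed in the submitters' processing notes, with no role, were featureCounts 1.4.6, HISAT2 2.0.1, DESeq2 1.6.3 and Trim Galore 0.4.1, with the build GRCm38 (mm10), and the sources used here give neither annotation release nor strand setting. The authors' deposited table holds raw counts for 47967 genes, 13946 of them at 0 throughout, and a deposited log table was not used. Counts were fitted with edgeR 4.0.16 in R 4.3.3 (TMM factors, filterByExpr, quasi-likelihood F test, two-sided) with 1 mean per group over all 24 libraries, 16 residual degrees of freedom and a common biological coefficient of variation of 5.55%. P-values were adjusted by Benjamini-Hochberg over all 17576 genes tested in each of 17 comparisons, and the code was tested on simulated data. Every replicate pair differed by more than sampling noise (chi-square per degree of freedom of 1.54 or more). Levels per length used GENCODE M21 exons (GRCm38), and RefSeq promoter windows were used for 4 of 10 members. The members and gene lists were chosen with earlier results of these data known. Companion genes named came from the 5 highest by mean level in each list and up to 3 more with the smallest adjusted p in AGHMT against mock at day 7, and other genes were named as markers or where a list member had too few counts. Genes compared for likeness were tested and reached 5 CPM in a group, with 0.5 CPM added before logs. Symbols of the predicted-gene, clone and pseudogene form were left out of that comparison. Alternatives were DESeq2 1.42.0, RLE size factors, library totals, no filter, compared libraries alone, a replicate block and each library left out.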

Additional observations from a re-analysis of the deposited data

Results flagged for a closer look

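For 21 pairs of gene and cocktail, the log2 difference from mock at day 7 and that at day 2 were told apart by edgeR's test of the difference between them (adjusted p under 0.05, values given as day 7 minus day 2 ± SE). Of the 10 genes, 7 were called under AGHMT, 6 under GHMT and 8 under GMT. The same tests called 50.9%, 49.3% and 49.5% of all genes, so a call by itself is close to the background. Under AGHMT these were Gja1 at -0.79 ± 0.06, Gjc1 at -0.39 ± 0.08, Cdh2 at 0.16 ± 0.07, Cdh11 at -1.13 ± 0.07, Dsp at 0.46 ± 0.19, Pkp2 at 2.47 ± 0.09 and Jup at 0.64 ± 0.07, where the largest edgeR adjusted p was 4.49e-02, for Dsp. Under GHMT these were Gja1 at -0.58 ± 0.06, Gja5 at 0.70 ± 0.19, Gjc1 at -0.70 ± 0.08, Cdh11 at -1.86 ± 0.07, Pkp2 at 2.08 ± 0.09 and Jup at 0.36 ± 0.07, where the largest edgeR adjusted p was 3.93e-03, for Gja5. Under GMT these were Gja1 at -0.15 ± 0.06, Gjc1 at -0.60 ± 0.08, Cdh11 at -1.91 ± 0.07, Dsp at 1.34 ± 0.19, Dsg2 at 1.93 ± 0.57, Dsc2 at 0.64 ± 0.23, Pkp2 at 2.27 ± 0.09 and Jup at 0.46 ± 0.07, where the largest edgeR adjusted p was 4.97e-02, for Gja1. A gene that is lower than mock has a wider gap at day 7 where this value is negative, as for Gjc1 and Cdh11. Pkp2 is the largest: its mean was 141, 174 and 76.5 CPM in AGHMT, GHMT and GMT libraries against 16.5 CPM in mock libraries at day 7, and 58.6, 94.2 and 36.3 CPM against 37.9 CPM at day 2. For Dsg2 the same difference was 1.29 ± 0.55 (edgeR adjusted p = 0.0529) under AGHMT and 1.27 ± 0.56 (edgeR adjusted p = 0.0617) under GHMT, and DESeq2 called both (adjusted p = 0.0195 under AGHMT and 0.0229 under GHMT). Mock libraries moved between the days too, and they enter every one of these tests. Macrophage markers were higher in mock libraries at day 7 too, and their part in these differences was not tested. Several of the smaller calls lay near the threshold and were lost when libraries were left out. The call of Gja1 under GMT was lost with library totals alone (edgeR adjusted p = 0.101) and without GMT day 7 replicates 1 or 3, mock day 7 replicates 1 or 2, mock day 2 replicates 2 or 3 or GMT day 2 replicates 1, 2 or 3, where the log2 value went as near to 0 as -0.11 and the edgeR adjusted p as high as 0.151. That of Gja5 under GHMT was lost without mock day 2 replicate 2, where the log2 value went as near to 0 as 0.42 and the edgeR adjusted p as high as 0.0939. That of Cdh2 under AGHMT was lost with no filter (edgeR adjusted p = 0.264), with the compared libraries alone (edgeR adjusted p = 0.0934) and without AGHMT day 7 replicates 1 or 2, mock day 7 replicates 1, 2 or 3, AGHMT day 2 replicate 3 or mock day 2 replicates 1, 2 or 3, where the log2 value went as near to 0 as 0.10 and the edgeR adjusted p as high as 0.117. That of Dsp under AGHMT was lost with the compared libraries alone (edgeR adjusted p = 0.059) and without AGHMT day 7 replicates 1, 2 or 3, mock day 7 replicates 1 or 3, AGHMT day 2 replicate 3 or mock day 2 replicates 1 or 2, where the log2 value went as near to 0 as 0.30 and the edgeR adjusted p as high as 0.243. That of Dsc2 under GMT was lost without mock day 7 replicates 2 or 3 or mock day 2 replicates 1 or 3, where the log2 value went as near to 0 as 0.51 and the edgeR adjusted p as high as 0.108.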

How the results depend on the processing

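The 17 counts of members called stayed within 1.5 times under DESeq2, RLE size factors, library totals alone, no filter for weakly expressed genes, the compared libraries alone, the replicate number as a block, and each library left out. The 6 counts against mock did not move at all, and the widest range was 5 to 8, for the GHMT and AGHMT differences between days. Of 1019 fold changes of single genes in the other settings, 976 kept direction and side of the threshold, 14 lost and 15 gained a call, and 14 changed sign. With 1 library left out, 1120 of 1200 kept both, 55 lost and 7 gained a call, and 18 changed sign. No called fold change changed sign, and the cause of the changes was not tested. Library totals alone moved the median of all genes by -0.12 in GHMT against GMT at day 2, and gave Cdh2 -0.09 there, -0.04 in GMT and -0.01 in mock at day 7 against day 2, and Dsc2 0.00 for the GHMT difference between days. The others that changed sign had values near 0: Dsp in AGHMT against GHMT at day 7 (0.00 with RLE and DESeq2, -0.01 without a filter and with the compared libraries alone), Dsg2 in GHMT against GMT at day 7 (0.00 with RLE and without a filter, 0.01 with DESeq2), and Dsc2 in GMT at day 7 against day 2 (0.00 with RLE, DESeq2 and the block). With a library left out, the ranges that crossed 0 were, for AGHMT against GHMT at day 7, -0.02 to 0.05 for Gja1, -0.09 to 0.01 for Gjc1 and -0.09 to 0.07 for Dsp, and at day 2 -0.19 to 0.02 for Dsp. For GHMT against GMT they were 0.00 to 0.06 for Cdh2 at day 2 and -0.11 to 0.17 for Dsg2 at day 7, for Dsc2 in GMT at day 7 against day 2 -0.06 to 0.06, and for Pkp2 in GMT against mock at day 2 -0.12 to 0.03. Among differences between days they were -0.12 to 0.39 for Gja5 under GMT, and -0.23 to 0.14 and -0.29 to 0.09 for Dsc2 under GHMT and AGHMT. The replicate numbers did not pair the libraries: the correlation of deviations from group means had a median of 0.00217 over 84 pairs with the same number, with 9 pairs above 0.1, and -0.00308 over 168 pairs with different numbers. As a block they moved no member count beyond 1.5 times, ended the call of Cdh11 in AGHMT at day 7 against day 2 (edgeR adjusted p = 0.058) and added that of Jup in GHMT against GMT at day 7 (edgeR adjusted p = 0.04). Depth limits Dsg2 and Dsc2 most, since their mock libraries hold few counts.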
